A study of Drosophila melanogaster with 3 samples.

Results

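The dense clusters of Blimp-1 binding sites described here are stretches of the fly genome where many reproducible sites lie close together. Of 4990 reproducible sites, 1070 had at least 6 other sites with summits within 25 kb on either side, and these clustered sites fell into 171 clusters. They were chosen by their density in the pooled list of reproducible peaks, so density and peak signal in the same list are given as descriptions without a test. The other 3920 sites serve as the comparison wherever a measure did not enter the rule.

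The study mapped Blimp-1 by chromatin immunoprecipitation and sequencing (ChIP-seq) in whole Drosophila melanogaster prepupae, the stage between puparium formation and head eversion. All 3 libraries are biological replicates of 1 group and come from 1 transgenic strain, Blimp-1-GFP, in which GFP is fused to the C terminus of Blimp-1. Males and females were pooled, the age within the prepupal stage is given as unknown, and sonicated chromatin was pulled down with an anti-GFP antibody according to the description (a separate antibody label names Blimp-1). No untreated, mutant or input group is analysed here, and in a whole animal a binding site used in a few cells cannot be told apart from a weak site used in many.

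Blimp-1 is a zinc finger transcription factor, best known as a repressor, whose mammalian orthologue (also called PRDI-BF1) directs the maturation of plasma cells. In flies the gene is switched on by the steroid hormone ecdysone, and the fading of the Blimp-1 protein in prepupae sets the time at which the nuclear receptor gene ftz-f1 comes on. Its zinc fingers recognise sites built around a GAAAG core. Long genes that encode developmental regulators often carry many separate enhancers.

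The following sequences show what lies under the strongest clustered sites. Each run is 51 bases of the reference genome (dm6, RefSeq release 6 of the fly genome), read 5′ to 3′ on the strand named, and the capitals mark the 11 bases closest to the PRDI-BF1 consensus within 100 bp of the summit. The first 10 runs belong to the 10 strongest clustered sites, named by their nearest protein-coding gene.
Kdm2, chr3R:9057690-9057740, plus strand: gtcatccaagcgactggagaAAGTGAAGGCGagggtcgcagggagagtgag
Blimp-1 site 1, chr3L:5627893-5627943, plus strand: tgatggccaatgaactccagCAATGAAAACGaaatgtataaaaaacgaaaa
Blimp-1 site 2, chr3L:5622171-5622221, plus strand: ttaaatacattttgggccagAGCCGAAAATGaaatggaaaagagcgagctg
cu, chr3R:11197389-11197439, minus strand: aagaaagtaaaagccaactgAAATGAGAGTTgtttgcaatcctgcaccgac
Eip74EF, chr3L:17577951-17578001, minus strand: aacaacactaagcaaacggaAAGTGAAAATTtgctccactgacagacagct
CG9737, chr3R:30243602-30243652, minus strand: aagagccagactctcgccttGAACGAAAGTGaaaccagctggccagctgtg
ftz-f1, chr3L:18765884-18765934, minus strand: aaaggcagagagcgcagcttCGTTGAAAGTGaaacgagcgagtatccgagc
Eip75B site 1, chr3L:17968632-17968682, minus strand: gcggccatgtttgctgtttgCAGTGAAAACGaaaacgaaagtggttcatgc
Eip75B site 2, chr3L:17965294-17965344, plus strand: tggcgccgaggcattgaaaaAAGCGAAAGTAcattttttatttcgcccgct
CG6118, chr3R:15427381-15427431, minus strand: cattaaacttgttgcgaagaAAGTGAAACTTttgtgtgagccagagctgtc

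None of the 10 runs held a full match to the consensus. Counting positions from 1 at the 5′ end of the capitals, with the consensus letter first (M for A or C, K for G or T) and the genomic base last, the single departure was A8G at Kdm2, G9A at Eip74EF and at the first Eip75B site, K11A at the second Eip75B site and G9C at CG6118. Blimp-1 site 1 departed at G3A and G9A, Blimp-1 site 2 at A2G, G3C and G9A, and cu at G3A and A7G. How often a window holds a match with 2 or 3 departures was not counted, so these capitals mark only the closest bases. The ftz-f1 and CG9737 runs departed at the start of the match (A2G and G3T at ftz-f1, M1G and G3A at CG9737), and both read GAAAGTGAAAC across the end of the capitals. The CG6118 run also holds GAAAGTGAAAC, which was noticed in these runs and then counted: it was present at 3 of the 10 strongest clustered sites, at 6 of all 1070 clustered sites (0.561%) and at 28 of 3920 other sites (0.714%). Full consensus matches lay under weaker sites, and 5 of the 6 strongest of those follow because they show the complete consensus inside dense clusters. The sequence of the other one, near exp, is not printed here.
CG3764, chr3L:17011909-17011959, minus strand: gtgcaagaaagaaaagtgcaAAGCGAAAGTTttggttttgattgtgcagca
heca, chr3R:30288466-30288516, minus strand: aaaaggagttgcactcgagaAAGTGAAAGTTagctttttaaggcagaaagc
CG32645, chrX:13137003-13137053, minus strand: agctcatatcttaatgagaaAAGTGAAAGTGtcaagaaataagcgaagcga
CG3097, chrX:5772570-5772620, plus strand: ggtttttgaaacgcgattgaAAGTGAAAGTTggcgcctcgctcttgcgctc
tal-2A, chr3R:13816128-13816178, plus strand: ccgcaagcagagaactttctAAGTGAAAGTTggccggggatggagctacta

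Signal is reported relative to the median reproducible site of the same replicate, because the scale of the deposited peak signal is not stated. On that scale these 5 sites with a full match measured between 2.56 ± 0.703 at CG3097 and 6.58 ± 0.608 at CG3764 (mean ± SD, n = 3 replicates), and the one near exp measured 6.56 ± 1.06. The 10 strongest clustered sites all lay above 10 on average.

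The clustered sites made up 21.4% of all reproducible sites and lay within 3.82 Mb of cluster span (first to last summit), which is 2.85% of the 134 Mb of the chromosome arms. Of the 171 clusters, 27 were a single qualifying site, 24 had 2, 43 had 3 to 6, 47 had 7 to 9 and 30 had 10 or more. The 30 largest held 434 clustered sites, or 40.6% of them. The median gap between neighbouring clustered sites of a cluster was 2550 bp, with quartiles of 1315 bp and 5535 bp, and clusters of 2 or more sites had a median span of 23.7 kb. A further 22 reproducible sites lay inside cluster spans without reaching the limit themselves.

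The limit of 6 neighbours cut through a continuous distribution. Just inside it, 337 sites had exactly 6 others, and their median relative signal was 1.02, 1.06 and 0.978 in replicates 1, 2 and 3. Just outside, 581 sites had exactly 5 others, with medians of 1.02, 1.02 and 1.04. At the far ends, the densest site had 21 others within 25 kb and 379 sites had none.

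**Figure D1:**
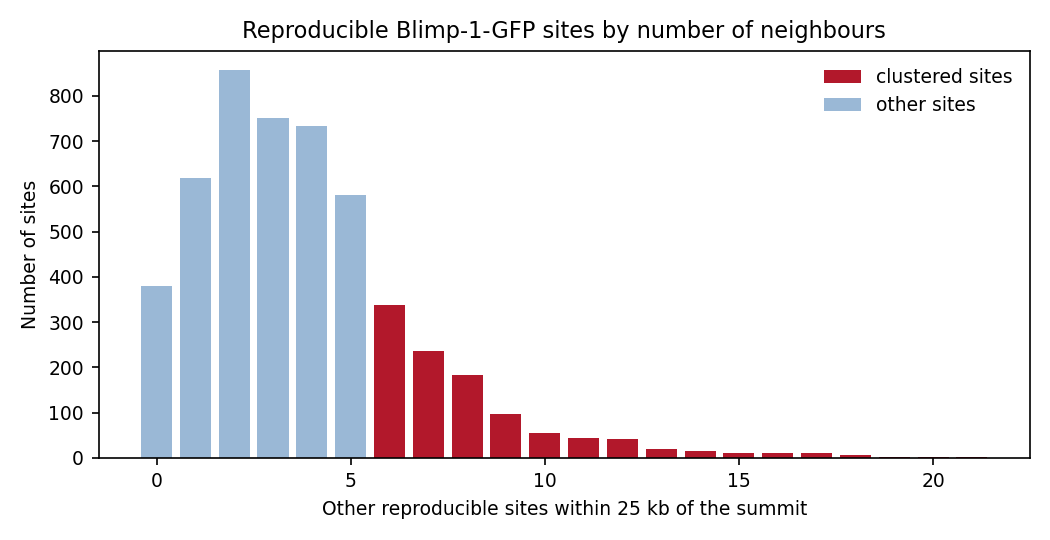
Number of reproducible Blimp-1-GFP sites (vertical axis) by how many other reproducible sites lay within 25 kb of the summit (horizontal axis), with clustered sites in red and other sites in blue. The counts fall without a break across the limit, with 337 sites at 6 others and 581 at 5.

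Clustered sites were found on every large arm. They made up 24.6% of the sites on 3L (284 sites), 24.3% on 3R (288 sites), 22.8% on X (193 sites), 18.1% on 2R (173 sites) and 15.8% on 2L (132 sites). None of the 11 sites on chromosome 4 qualified.

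The cluster with the most sites for its annotated gene was at Eip75B, which encodes the ecdysone-induced nuclear receptor E75. All 26 of its sites lay in the gene, between chr3L:17962879-18038020, with 24 in introns and 2 within 1000 bp of a transcription start site (TSS). Their relative signal was lowest at 0.549, had a median of 1.33 and was highest at 11.3. The gene spans 114 kb and has 7 annotated start sites, and it carried 28 reproducible sites in all.

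A cluster of the same size, 26 sites, covered the 112 kb around hng3 and extramacrochaetae (emc) (chr3L:712315-824713). It is named by hng3, which held 2 of the sites. The 1 site at emc also lay in hng3 and measured 0.485, the lowest of the cluster. emc encodes a helix-loop-helix protein that blocks proneural factors. Here 23 of the 26 sites were intergenic and 3 were at promoters, and the highest relative signal was 3.02, below the strongest site of the Eip75B cluster. The median was 0.955, below the 1.33 of the Eip75B cluster. Each replicate was also left out in turn, keeping the sites met by the strongest peaks of both others. Then 13, 16 and 14 sites of this cluster still qualified without replicate 1, 2 or 3, against 18, 18 and 20 at Eip75B, and with a window of 10 kb 6 did, against 18 at Eip75B.

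At taranis (tara), which encodes a chromatin-associated regulator of the trithorax group, 22 sites covered 48.0 kb (chr3R:16205526-16253526). Of these, 13 lay in the gene or 2 kb upstream, and by position 11 were intronic, 9 intergenic and 2 at promoters. This cluster held the densest point of the genome by the counting rule, a site with 21 others within 25 kb. Its relative signal reached 3.49 and had a median of 1.07. Without replicate 1 and without replicate 2, 11 of the 22 sites still qualified.

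The cluster at head involution defective (hid), a death activator that antagonises apoptosis inhibitors, had 21 sites over 57.1 kb (chr3L:18184184-18241280). Of these, 19 were intergenic, and 2 were in the gene or its upstream 2 kb. Its strongest site measured 2.84 and its median site 1.11. Another largely intergenic cluster had 20 sites over 93.1 kb between Dyro and CG11726 (chr3L:11296245-11389311), with 17 sites outside genes and a highest relative signal of 2.53. It had 0 sites that still qualified with a window of 10 kb, and 5, 7 and 6 without replicate 1, 2 or 3.

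The cluster at E2f1, a transcription factor of the cell cycle, reached into the insulin receptor gene InR. Of its 19 sites (chr3R:21599779-21662617), 12 lay in E2f1 and 7 in InR, and 15 were intronic. The strongest site measured 2.63 and the median site 0.874. In each replicate between 12 and 16 of the 19 sites were met by that replicate's strongest peaks, and 7 were met in all 3. Leaving out replicate 1, 2 or 3 left 5, 5 and 8 qualifying sites.

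The Blimp-1 gene itself had a cluster of 18 sites in 33.8 kb (chr3L:5609654-5643489). Its median relative signal was 3.66, against medians of 0.874 to 1.94 in the other 11 of the 12 largest clusters. Of the 18 sites, 12 were intergenic on the upstream side, 3 were at promoters and 3 were in introns. The strongest one, 3029 bp upstream of the nearest Blimp-1 start site, measured 25.6, 30.03 and 17.8 in replicates 1, 2 and 3. The second strongest, 8796 bp upstream, measured 20.1, 22.2 and 15.3. The lowest measured 0.497, so sites near and below the genome median lay within the same 33.8 kb. The strain is transgenic for Blimp-1-GFP and no input is analysed here. The number of copies of this locus, and its part in these values, was not tested.

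Headcase (heca), a gene active in imaginal cells, also had 18 sites, spread over 55.7 kb (chr3R:30240492-30296154). The 8 sites in heca shared the span with CG9737, CG9733, CG34299, CG9682 and CG18404. The strongest lay 339 bp upstream of CG9737 and measured 12, 15.6 and 7.81 in replicates 1, 2 and 3, and the median site of the cluster measured 1.85.

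Pipsqueak (psq), which encodes a BTB-domain protein that binds GAGA sequences, shared 17 sites with its neighbour lola (longitudinals lacking, a BTB zinc finger factor) on chr2R:10536007-10601672. Of these, 12 lay in psq and 4 in lola, and the highest relative signal was 6.45. Without replicate 1, 9 of the 17 still qualified. At ftz-f1, the nuclear receptor gene that Blimp-1 is known to repress, the cluster had 16 sites over 68.8 kb (chr3L:18754106-18822917), 12 of them in the gene. The strongest ftz-f1 site, 135 bp upstream of a start site, measured 13.2, 11.5 and 10.1, and the median site of the cluster measured 1.94. Leaving out replicate 1, 2 or 3 left 9, 8 and 9 qualifying sites.

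Scribbler (sbb), which encodes a transcriptional corepressor, held all 16 sites of its cluster (chr2R:18287956-18357442), with a highest relative signal of 2.72, and 8 still qualified without replicate 1. Anterior open (aop), which encodes an ETS-domain repressor downstream of Raf signalling, led a cluster of 15 sites that spanned 13 genes (chr2L:2163683-2221816). Of these 15 sites, 5 lay in aop and 4 in COX7AL2, and the strongest, near CG31668, measured 9.07. Without replicate 2 and without replicate 3, 9 of them still qualified.

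**Figure D2:**
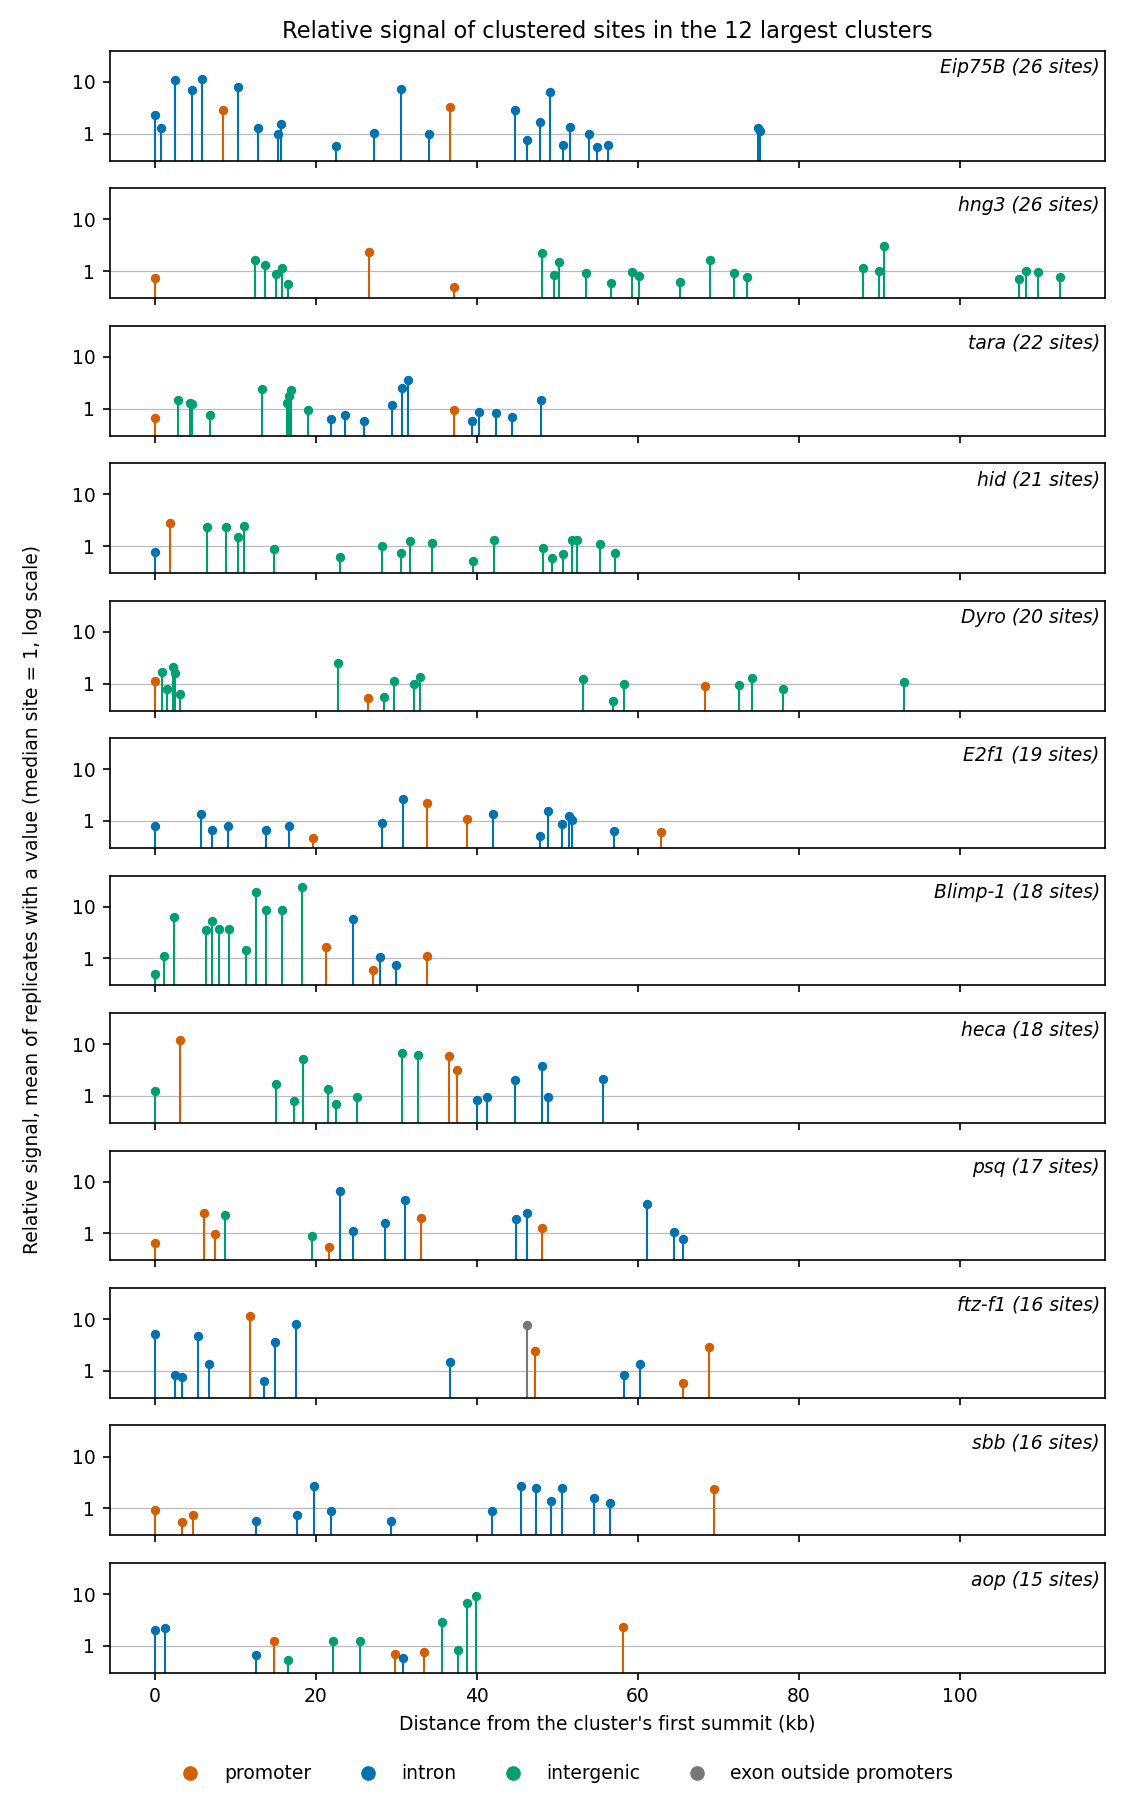
Relative signal (vertical axis, log scale, mean of the replicates with a value, median reproducible site at 1) of each clustered site against its distance in kb from the first summit of the cluster (horizontal axis), for the 12 largest clusters, each named by its lead gene. Points are coloured by position, and the Blimp-1 cluster packs 18 sites into 33.8 kb with a median of 3.66 while the hng3 cluster spreads 26 weaker sites over 112 kb.

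Across the 30 clusters of 10 or more sites, a single gene and its upstream 2 kb held all sites in 9 and at least 50% of them in 20. Besides Eip75B and sbb, clusters lying wholly in 1 gene included those at the nuclear receptor gene Hr4 (11 sites), at shn, which encodes a zinc finger cofactor of Dpp signalling (11 sites), and at Tis11, which encodes an RNA-binding protein of mRNA decay (11 sites). Tet, which encodes the fly member of the TET dioxygenase family, held 10, and Oatp74D, which encodes the importer of ecdysone into cells, also held 10. At Glut4EF all 11 sites also lay in the overlapping gene CG46467, so they cannot be assigned to one of them.

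Other large clusters lay mostly between genes. Of the 12 sites around the small-peptide genes tal-1A, tal-2A, tal-3A and tal-AA (tarsal-less, named here after its values were seen), 11 were intergenic, and the strongest measured 7.81 ± 0.685 (SD, n = 3). In all, 13 of the 171 clusters spanned no protein-coding gene, and the clusters together spanned 491 of 13945. Most of these 13 were small: the largest, near Reg-2, had 11 sites. Several were single sites, whose span is only the summit, and some of those lay at promoters.

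Smaller clusters held some of the strongest sites. The strongest clustered site, and the strongest reproducible site of the genome, lay in an intron of the histone demethylase gene Kdm2, in a cluster of 9 sites. It measured 27.5, 28.0 and 21.7 in replicates 1, 2 and 3. The promoter site of curled (cu), which encodes the fly nocturnin, measured 16.1, 18.4 and 16.0. In the cu cluster the other 7 sites were weaker, with a median over the 8 sites of 0.933. The strongest peaks of replicates 1, 2 and 3 met 8, 8 and 1 of the 8 sites, so most of this cluster rests on replicates 1 and 2.

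At Eip74EF, an ecdysone-induced ETS factor gene with 6 clustered sites, the strongest site measured 15.9, 12.9 and 12.5. The 2 strongest Eip75B sites measured 12.5, 12.5 and 8.70, and 10.8, 13.2 and 8.13. The CG6118 promoter site measured 9.99, 11.96 and 8.66. Replicate 3 gave the lowest of the 3 values at each of these 10 sites.

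**Figure D3:**
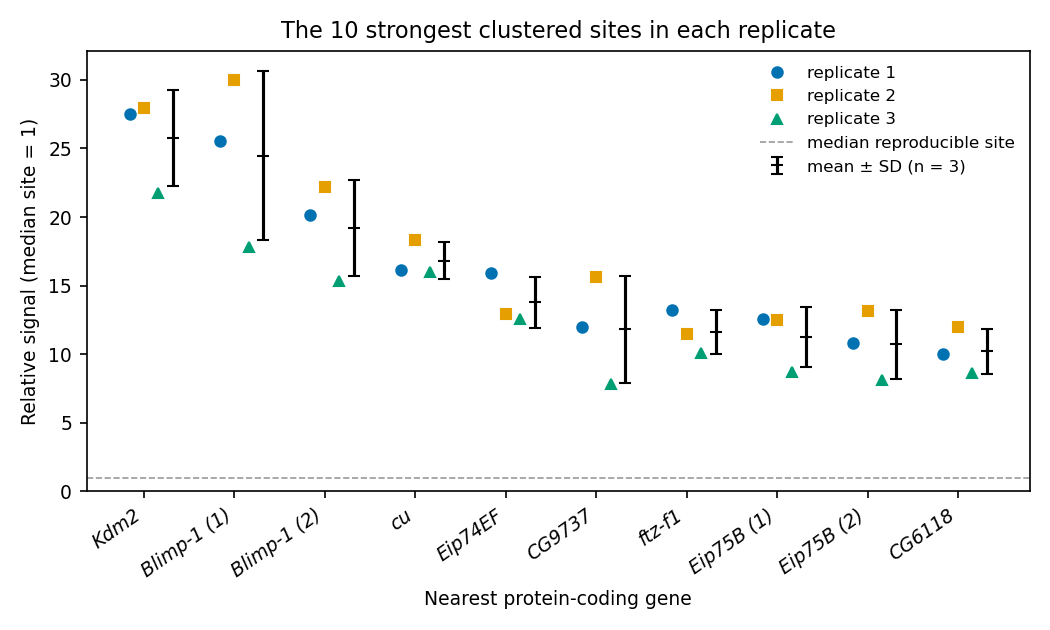
Relative signal (vertical axis, median reproducible site at 1) of the 10 strongest clustered sites, named by their nearest protein-coding gene (horizontal axis), with 1 point per replicate and the mean ± SD beside them (n = 3). All 30 values lie above the dashed line at 1, from 7.81 at CG9737 in replicate 3 to 30.03 at Blimp-1 in replicate 2.

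Many of the strongest sites were clustered: 5 of the 10 strongest reproducible sites, 39 of the 100 strongest and 128 of the 500 strongest (25.6%) lay in clusters, beside 21.4% of all sites. Within clusters the signal was uneven. Over the 77 clusters of 7 or more sites, the strongest site had a median of 3.08 times the signal of its cluster's median site, with a range of 1.13 to 18.03.

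The median relative signal of clustered sites was 1.10, 1.09 and 1.04 in replicates 1, 2 and 3, against 0.975, 0.978 and 0.984 for other sites. Clustered sites were thus higher in each replicate, at 1.07 ± 0.0320 against 0.979 ± 0.00446 (mean ± SD of the medians, n = 3). The shares of sites above 5 times the median site were 5.30 ± 0.636% of clustered sites and 2.91 ± 0.460% of other sites. These values are a description, since the same peaks set the density.

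Support by replicate went the same way. A replicate's strongest peaks, as many as there are reproducible sites, met 86.3%, 85.3% and 77.9% of clustered sites in replicates 1, 2 and 3, against 81.8%, 80.6% and 72.6% of other sites. All 3 replicates met 63.6% of clustered sites and 55.03% of other sites, and 56.9% of all sites. In replicate 3 no relaxed peak overlapped 76 clustered sites and 513 other sites, whereas in replicate 1 no clustered site and 2 other sites lacked one. Across clustered sites the signal of 2 replicates had a Spearman rho of 0.84 for replicates 1 and 2 (1069 sites), 0.77 for replicates 1 and 3 (994 sites) and 0.65 for replicates 2 and 3 (993 sites). These sites share their libraries and were all called from them.

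The rule was also run on each replicate's own strongest peaks, an alternative added after the data were seen. For this run the number of peaks taken was that of the reproducible list before merging, 5573. The rule then gave 1198, 1097 and 1156 clustered sites in 181, 170 and 172 clusters for replicates 1, 2 and 3. Of the 171 clusters from the pooled list, 87 overlapped a cluster of every replicate and 18 overlapped none. Large clusters were met more often: all 30 clusters of 10 or more sites and 59 of the 77 with 7 or more were met in all 3 replicates, but none of the 27 single-site clusters was. A longer span is easier to overlap, and the pooled list was called from these same replicates. These counts are therefore a description and no independent support. The Kdm2, cu and Eip74EF clusters were met in 2 of the 3 replicates.

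Clustered sites lay away from promoters more often than other sites did. A protein-coding TSS lay within 1000 bp of 320 of 1070 clustered sites (29.9%, 95% Wilson interval 27.2% to 32.7%), against 1983 of 3920 other sites (50.6%, 49.0% to 52.2%), and of 46.2% of all sites. The odds ratio was 0.417 (two-sided Fisher's exact test, p = 4.87e-34). Sites are the units of this test, not animals, and sites of a cluster share their neighbourhood, which makes the p-value too small. With 1 site per cluster, the one of highest signal, the share was 36.3% (odds ratio 0.556, two-sided Fisher's exact test, p = 0.000302). These sites were picked by signal and not at random, and the other sites were not thinned.

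The promoter share was lower in clusters in each replicate taken alone. Among the sites met by a replicate's strongest peaks it was 29.9%, 30.3% and 26.3% of clustered sites in replicates 1, 2 and 3, against 53.3%, 52.4% and 45.4% of other sites. Introns held 44.5% of clustered sites and 32.7% of other sites, and intergenic stretches held 24.4% and 15.3%. Coding exons outside promoters held 1 clustered site and 20 other sites. The median distance to the nearest TSS was 2738 bp for clustered sites and 957.5 bp for other sites, and the median number of start sites within 25 kb was 8 for clustered sites and 9 for other sites.

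Inside the clusters the promoter share was lower in the denser steps. The promoter share was 36.8% at 6 others, 34.1% at 7 to 8, 19.5% at 9 to 11 and 12.6% at 12 to 21, where 45.4% of sites were intergenic. Across the same steps the median relative signal in replicate 1 was 1.02, 1.04, 1.23 and 1.30, in replicate 2 it was 1.06, 1.05, 1.18 and 1.29, and in replicate 3 it was 0.978, 1.04, 1.09 and 1.21. The median number of start sites within 25 kb was 8, 9, 6 and 5 across these steps, so it was lower where the promoter share was lowest, and its part in that share was not tested. The densest step rests on 119 sites, and no test was run on the steps. All 119 lay in large clusters, among them tara (up to 21 others), Eip75B and Blimp-1 (up to 18 each) and hid (up to 17). The others were at E2f1 and heca (up to 15 each), hng3, psq and aop (up to 13 each) and Raf (up to 12). The values of this step thus describe those loci, and density cannot be told apart from locus there.

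**Figure D4:**
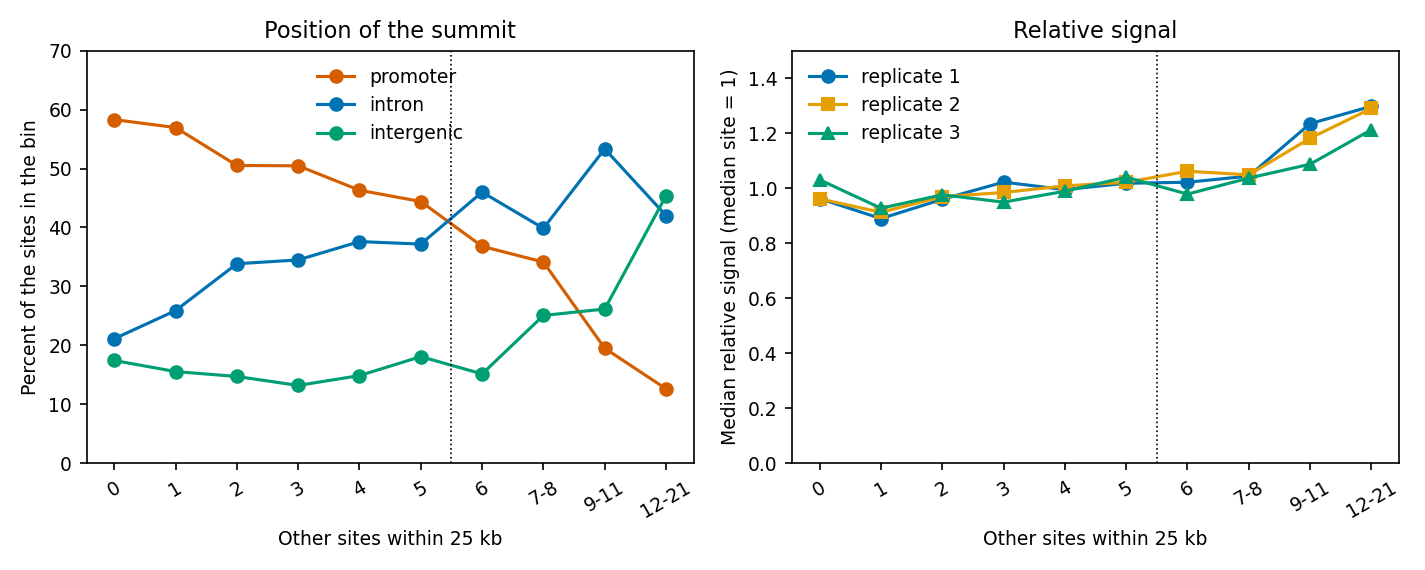
Left, percent of sites at promoters, in introns and between genes (vertical axis), and right, median relative signal in each replicate (vertical axis, median reproducible site at 1), by the number of other sites within 25 kb (horizontal axes); clustered sites lie right of the dotted line. The promoter share is 12.6% in the densest bin and 58.3% among sites with no neighbour, and the median relative signal in the densest bin is 1.30, 1.29 and 1.21 in replicates 1, 2 and 3.

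The genes that held clustered sites were long. In the gene body or the 2 kb upstream, 410 of 13945 protein-coding genes (2.94%) held at least 1 clustered site, and 840 of the 1070 clustered sites (78.5%) lay in such a stretch. The median gene length was 5.98 kb for these 410 genes, 34.0 kb for the 58 genes with 5 or more clustered sites and 62.7 kb for the 16 with 10 or more, beside 2.17 kb for all protein-coding genes. The part of gene length in these counts was not tested.

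Regulators of the ecdysone response held clustered sites in 8 of 19 genes, beside 2.94% of all protein-coding genes. A reproducible site of any kind lay in 17 of the 19, beside 3453 of 13945 protein-coding genes. The 8 genes were Eip75B (26 sites), ftz-f1 (12), Hr4 (11), the receptor gene EcR (9), Blimp-1 (6), Eip74EF (6), the receptor gene Hr3 (6) and the juvenile hormone response factor gene Kr-h1 (4). The median gene on this list was 33.4 kb long, and the 6 Hr3 sites also lay in the overlapping genes CG12912 and CG46321. In the EcR cluster, 8 of the 9 sites were intronic and the strongest measured 6.42, 7.63 and 4.63 in replicates 1, 2 and 3. The strongest Hr4 site measured 11.1, 8.28 and 7.60.

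In the Enhancer of split and Bearded complexes, small Notch-responsive genes packed side by side, 5 of 15 genes held a clustered site, beside the same 2.94%, and 7 held a reproducible site of any kind. All 5 were Enhancer of split genes at a single cluster, so they are neighbours at the same locus. The cluster there had 9 sites over 24.8 kb (chr3R:25996559-26021363), and its strongest site measured 1.99, 1.89 and 3.45 in replicates 1, 2 and 3. Genes of the EGF receptor, Notch, Wnt, Hedgehog, BMP and Hippo pathways held clustered sites in 6 of 38 cases and a reproducible site of any kind in 32, led by the Hippo regulator ex (4 sites), the Wnt receptor gene fz2 (3) and the Hippo kinase gene wts (3). Cell death and autophagy genes held clustered sites in 3 of 20 cases and any site in 11, namely Atg5 (2), hid (2) and Atg7 (1). The 19 intergenic sites around hid are not counted in that number.

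Of 8 circadian clock genes, vri, which encodes a bZIP repressor of the clock, held clustered sites, with 9 over 19.2 kb and a strongest value of 4.65, 4.97 and 3.32. Any site lay in 4 of the 8 clock genes. Adhesion and guidance genes held clustered sites in 2 of 25 cases (dlp with 8 sites and robo2 with 1) and any site in 15. Cytoskeleton and muscle genes held clustered sites in 2 of 16 cases (Act5C with 3 and Mef2 with 2) and any site in 10. These shares stand beside 2.94% of all protein-coding genes. No clustered site lay in any of the 8 Hox genes, although 2 of them held a reproducible site, nor in any of 35 imaginal disc patterning genes, 17 of which held one. The same count was 0 of 13 tracheal genes, 0 of 12 apical matrix (zona pellucida) genes and 0 of 11 tanning and pigment genes. With a share of 2.94% over all protein-coding genes, a count of 0 in lists of this size is near the background and is no result about these genes. The Hox genes had a median length of 30.6 kb and the disc patterning genes of 15.3 kb. For adhesion and guidance genes it was 49.9 kb, for cytoskeleton and muscle genes 34.2 kb and for the signalling pathway genes 16.7 kb. All protein-coding genes had a median of 2.17 kb.

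Several clusters lay over tandem or overlapping copies. At polyhomeotic, the Polycomb group gene present as the neighbouring copies ph-p and ph-d, 8 sites covered 20.01 kb, with 4 sites in ph-p and 3 in ph-d. The sources used here do not say how reads matching both copies were handled, so the split between them is uncertain. The cluster at Osi2, in a row of related Osiris genes, had 6 sites over 30.95 kb, all met by the strongest peaks of every replicate.

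Sequences recognised by Blimp-1 were more frequent at the summits of clustered sites than nearby, although most summits held no GTGAAAG. Matches were searched on both strands within 100 bp of the summit and, as a local comparison, within 100 bp of a point 500 bp to the right. GTGAAAG was present at 100 of 1070 summits (9.35%) and 23 flanks (2.15%), a ratio of 4.35 (exact McNemar test, two-sided, Benjamini-Hochberg adjusted over 5 motifs, p = 1.28e-12). The ratio was 4.25, 4.33 and 4.44 for sites met by the strongest peaks of replicates 1, 2 and 3.

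The other Blimp-1 sequences were also more frequent at summits of clustered sites. GAAAG, which GTGAAAG contains, occurred at 54.9% of clustered summits and 39.7% of their flanks (exact McNemar test, adjusted p = 9.76e-12). The PRDI-BF1 consensus, which also contains GAAAG, occurred at 3.74% of clustered summits and 0.748% of their flanks (exact McNemar test, adjusted p = 2.29e-06). This ratio of 5 rests on 8 flanks with a match, and it was 13.3 against the flank on the other side. GAGAG, the element bound by GAGA factor and Pipsqueak, occurred at 34.4% of clustered summits and 24.9% of their flanks (exact McNemar test, adjusted p = 2.29e-06). The nuclear receptor half-site AGGTCA occurred at 3.55% of clustered summits and 5.05% of their flanks, a difference that did not pass the test (exact McNemar test, adjusted p = 0.105).

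Against other sites, none of the 5 sequences differed past the threshold. GTGAAAG was present at 9.35% of clustered and 8.27% of other summits, and at 8.50% of all (two-sided Fisher's exact test, adjusted p = 0.499, odds ratio 1.14). GAAAG was present at 54.9% and 55.5%, with 55.4% among all sites, and the consensus at 3.74% and 3.67%, with 3.69% among all sites. GAGAG was present at 34.4% of clustered and 31.4% of other summits, with 32.0% among all sites (two-sided Fisher's exact test, p = 0.0647 before and 0.323 after adjustment). Within clusters the GAGAG share was 31.8% at 6 others, 33.7% at 7 to 8, 34.4% at 9 to 11 and 44.5% at 12 to 21, with no test of the steps. The last of these steps rests on sites of the large clusters named above, such as tara and Eip75B. AGGTCA was present at 3.55% and 4.29%, with 4.13% among all sites. The 95% Wilson interval for GTGAAAG was 7.74% to 11.2% at clustered and 7.44% to 9.17% at other summits, so differences of a few percentage points are within the error.

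**Figure D5:**
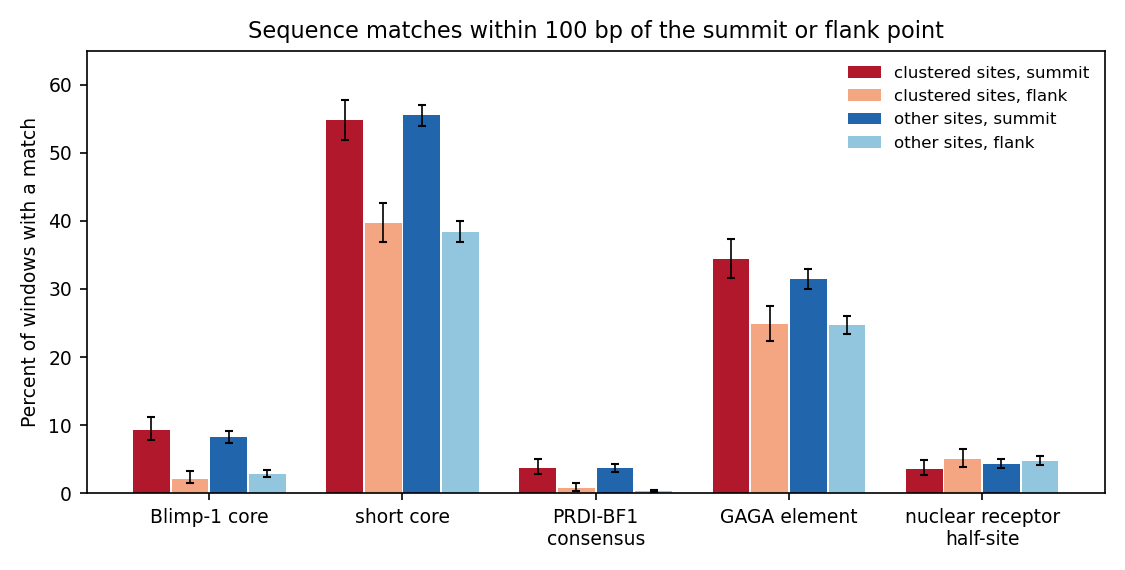
Percent of windows with a match within 100 bp (vertical axis, bars with 95% Wilson intervals) for 5 sequences (horizontal axis: GTGAAAG as Blimp-1 core, GAAAG as short core, the PRDI-BF1 consensus, GAGAG as GAGA element, AGGTCA as nuclear receptor half-site) at summits and flanks of clustered sites and of other sites. The Blimp-1 core is present at 9.35% of clustered summits and 2.15% of their flanks, and at 8.27% of other summits and 2.88% of theirs.

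Near matches to the consensus were more common than full ones. At most 1 mismatch was found at 225 clustered summits (21.03%) and 878 other summits (22.4%), beside 22.1% of all sites, and at 5.51% of the flanks of clustered sites. Of the 185 clustered summits with exactly 1 mismatch, 48 (25.9%) had it at position 3 of the consensus, 25 (13.5%) at position 9 and 6 (3.24%) at position 8. In the 51 flanks with exactly 1 mismatch, position 3 accounted for 11.8% and position 9 for 19.6%. The strongest site of each of the 77 clusters of 7 or more sites held GTGAAAG in 3 cases (3.90%), against 9.34% of the 728 weaker sites of those clusters, while at most 1 mismatch was found at 27.3% and 19.5% of them.

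The DNA of the cluster spans was not much richer in the core than the rest. GTGAAAG had 0.149 copies per kb inside the spans and 0.136 copies per kb outside. Base composition at the summits was also close, with a mean GC content of 40.6% at clustered and 39.7% at other summits. Weaker regions of the pooled relaxed list, those that met no reproducible site, numbered 306 per Mb inside the spans and 131 per Mb outside. These regions come from the same libraries as the sites, and the spans were chosen for dense peaks. The higher density of weaker regions is therefore a description.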

How the data were processed

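Whole prepupae of 1 transgenic strain gave 3 ChIP-seq libraries. The authors deposited peak lists with a signal value per peak; the sources used here state neither its scale nor the peak caller, its settings, the reproducibility threshold and the read depth, so no counting error is given. Per the labels, the lists are in dm6 and dm3. All reproducible dm6 sites fell within the arms of the RefSeq release 6 genome. From the deposited reproducible (IDR) list of 5573 peaks, overlapping peaks were merged into 4990 sites at the strongest summit. A clustered site had at least 6 others within 25 kb, and clustered sites within 25 kb were joined. Relative signal is the strongest overlapping relaxed peak (at least 1 bp, 30000 peaks per replicate list) over the replicate's median across sites, computed over the replicates with a peak. Genes and TSSs came from Ensembl release 115. Sequence shares were compared with Fisher's exact and exact McNemar tests (SciPy 1.17.1, Python 3.11.15), adjusted by Benjamini-Hochberg over 5 motifs, with 0.05 as threshold. The rule and tests were run on simulated sites. Planted runs there lay far from other sites, and the Fisher check drew sites independently. This checks the code, but not sites near the limit or sites sharing a neighbourhood.

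Members and gene lists were chosen with earlier results of these data known. Clusters are named by the gene holding most sites; the 12 largest clusters and 10 strongest sites are given in full. Other windows, limits, merging, lists, flanks and left-out replicates were tried.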

Additional observations from a re-analysis of the deposited data

How the results depend on the processing

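The number of clustered sites followed the rule closely. It was 201 in 36 clusters with a window of 10 kb and 2793 in 410 clusters with 50 kb, 1651 with at least 5 others and 497 in 76 clusters with at least 8, beside 1070 in 171 clusters. It was 1793 without merging of peaks, 596 in 101 clusters from the 4000 strongest sites and 287 in 49 clusters from sites met in all 3 replicates. Merging peaks within 500 bp gave 763 in 137 clusters, and the deposited dm3 list of 5577 sites gave 1536 in 221 clusters. Leaving out 1 replicate at a time and keeping sites met by both others gave 323 clustered sites in 55 clusters without replicate 1, 372 in 68 without replicate 2 and 458 in 80 without replicate 3, since fewer sites then remain. Joining within 10 kb gave 270 clusters. Of the 30 clusters of 10 or more sites, 20 kept a clustered site with the 10 kb window and 26 among sites met in all 3 replicates, where the E2f1 cluster had none. With the 10 kb window the Dyro cluster had none.

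Support of clustered sites in all 3 replicates was 92.8% with any relaxed peak, against 86.25% for other sites. When 1 replicate was left out it was 67.2% to 76.4%, against 59.1% to 70.8% for other sites, since 2 replicates then decide. As a percentile rank, the relative signal of clustered sites was 54.4, against 48.7 for other sites (means of 3 replicates). The promoter odds ratio was 0.369 to 0.556 under its 6 alternatives and the Blimp-1 sequences kept their excess at summits over flanks, with the consensus ratio at 13.3 instead of 5 for the lower flank. The AGGTCA ratio turned to 1.03 with the lower flank. Sequence shares against other sites, which did not pass the test, changed direction in several settings. The GTGAAAG odds ratio was 0.913 with 1 site per cluster and 0.975 to 1.05 without single replicates. The GAAAG odds ratio was 1.03 within 50 bp and 1.03 with 1 site per cluster. For the PRDI-BF1 consensus it was 0.954 within 50 bp and 0.898 to 0.991 without single replicates. The causes were not tested. No paired analysis was possible because the study has 1 group. Peak lists carry no read counts, so depth limits cannot be given. With 3 replicates of 1 strain, p-values over sites say nothing of the spread between animals.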
